A study of Mus musculus with 6 samples.

Results

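The nuclear genes of the mitochondrial respiratory chain were followed across 6 mouse RNA-seq libraries. They were taken by symbol: names beginning with Ndufa, Ndufb, Ndufc, Ndufs or Ndufv and a number, the 4 Sdh genes, and names beginning with Uqcr, Cox4 to Cox8 or Atp5. The rule found 84 of the 23889 symbols in the tables. Of these, 37 carry complex I names, 4 belong to complex II, 8 to complex III, 18 to complex IV and 17 carry complex V names. The rule uses no measured value, and it leaves out the complex I subunit Ndufab1, cytochrome c1 (Cyc1) and the subunits encoded in mitochondrial DNA. It takes in both core and accessory subunits, and a few genes whose symbols do not match their present place, role or name. Ndufa4 has a complex I name but is now placed in complex IV, Cox7a2l links complexes into supercomplexes, and Atp5s and Atp5sl are now named Dmac2l and Dmac2.

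The AG-haESC group held androgenetic haploid embryonic stem cells of 3 lines, A129-2, AOS-14 and AOS-16, with 1 library a line. Per the labels their strain is the F1 hybrid C57BL/6 X DBA/2. A sperm head was put into an MII oocyte without its spindle, the oocyte was activated with SrCl2, and blastocysts were grown out over feeders in a medium of serum replacement plus 2i, a pair of kinase inhibitors that holds the naive state. Haploid cells in G0/G1 were then sorted by their Hoechst stain. The labels give no genotype beyond the strain and an age for the oocyte donors alone. The round sperm group was 1 library of the same F1 strain with the cell type given as sperm. Its protocol text repeats that of the AG-haESCs, so how these cells were collected is unclear. The ESC XX group was 2 libraries of 2i-cultured cells from an Oct-GFP (C57) background, kept in serum with LIF and 2i and collected after feeder removal, with no sort named. The labels do not say whether the ESC XX libraries came from separate cultures. The purpose given for the series is to compare transcription in AG-haESCs with that in the other samples.

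The respiratory chain sits in the inner mitochondrial membrane. Complexes I (NADH dehydrogenase) and II (succinate dehydrogenase) pass electrons to ubiquinone, complex III (the bc1 complex) passes them on to cytochrome c, and complex IV (cytochrome c oxidase) gives them to oxygen. Complexes I, III and IV pump protons, and complex V, the ATP synthase, uses the proton gradient to make ATP. Several subunits of complex IV have isoforms from separate genes with tissue-restricted expression, among them Cox6b2, Cox7b2 and Cox8c in male germ cells and Cox6a2, Cox7a1 and Cox8b in heart and skeletal muscle. Embryonic stem cells make much of their ATP by glycolysis and still carry an active respiratory chain. Many nuclear respiratory genes are known targets of the factors NRF1, GABPA (also called NRF2) and YY1.

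The NRF1, GABPA and YY1 motifs, which the symbol rule did not use, were more frequent in member promoters than in all promoters. Each was absent from most member promoters. RefSeq promoter windows of 300 bases, from 250 before to 50 after the start of transcription (GRCm38.p6), were matched for 69 of the 84 members and for 17743 genes of the tables. Searched on both strands, the NRF1 motif, GCGCA and GCGC with any 1 base between them, stood in 24.6% of member windows against 7.25% of all windows. The GABPA motif CCGGAAG stood in 23.2% against 12.9%, and the YY1 motif AANATGGCG in 15.9% against 3.67%. At least 1 of these 3 motifs was present in 38 member windows (55.1%), against 21.0% of all windows. By complex they were in 17 of 32 windows for complex I, 3 of 3 for complex II, 3 of 5 for complex III, 3 of 13 for complex IV and 12 of 16 for complex V. The SP1 motif GGGCGG, in contrast, was in 40.6% of member windows and 49.9% of all. TATAAA was in 10.1% against 14.3% and the CREB motif TGACGTCA in 5.80% against 2.62%, and the median CpG count was 19 against 15 at a similar GC content (58.3% and 57.3%). Motifs may overlap each other, and a match of letters is not a measured binding site.

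The 120 bases just before the start are shown for 7 members, 5′ to 3′ on the gene's strand, with matches to the NRF1 and GABPA motifs on either strand in capitals. Sdha (chr13:74350241-74350360, minus strand) and Atp5g2 (chr15:102671048-102671167, minus strand) show the NRF1 motif, which Sdha holds 3 times. Cox6a1 (chr5:115348959-115349078, minus strand) holds both motifs. The broadly expressed Cox6b1 (chr7:30626115-30626234, minus strand) and Cox7b (chrX:106015580-106015699, plus strand) are set beside their germ cell isoforms Cox6b2 (chr7:4753095-4753214, minus strand) and Cox7b2 (chr5:71548206-71548325, minus strand), since the members of each pair differed in opposite directions between AG-haESCs and round sperm. Cox6b1 holds a GABPA match, and Cox6b2, Cox7b and Cox7b2 hold none of the 3 motifs.
Sdha: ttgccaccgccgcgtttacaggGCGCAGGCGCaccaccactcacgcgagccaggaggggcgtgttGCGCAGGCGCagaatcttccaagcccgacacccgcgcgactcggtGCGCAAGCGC
Atp5g2: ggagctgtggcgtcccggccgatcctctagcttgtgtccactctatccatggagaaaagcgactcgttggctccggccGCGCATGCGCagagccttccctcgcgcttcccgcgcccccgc
Cox6a1: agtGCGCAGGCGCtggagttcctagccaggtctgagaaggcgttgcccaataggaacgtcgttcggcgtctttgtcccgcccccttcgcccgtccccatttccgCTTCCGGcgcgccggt
Cox6b1: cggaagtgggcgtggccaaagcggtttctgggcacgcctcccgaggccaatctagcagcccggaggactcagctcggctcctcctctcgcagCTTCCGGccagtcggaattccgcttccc
Cox6b2: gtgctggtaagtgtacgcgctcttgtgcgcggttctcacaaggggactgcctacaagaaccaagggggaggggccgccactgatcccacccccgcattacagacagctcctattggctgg
Cox7b: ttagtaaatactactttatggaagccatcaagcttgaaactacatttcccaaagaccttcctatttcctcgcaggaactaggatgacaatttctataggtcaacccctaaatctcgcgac
Cox7b2: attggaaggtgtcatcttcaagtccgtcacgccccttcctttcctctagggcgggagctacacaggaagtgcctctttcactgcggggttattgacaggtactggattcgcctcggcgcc

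Values were deposited as FPKM, fragments scaled to transcript length and library depth. The totals of FPKM ran from 507556 to 1239220, highest in round sperm, and 11406 to 12515 genes reached 1 FPKM. The step between low values put the depth of the other libraries at 0.848 to 1.81 times that of round sperm, and the total numbers of reads are unknown. Genes with transcripts under 200 nt held 12.7% of all FPKM in AOS-14 and 6.26% in round sperm, against at most 0.111% in the other 4 libraries. Marker sums went with the labels: 10 spermatid genes summed to 39530 FPKM in round sperm and to 1.61 to 4.51 elsewhere, and 10 pluripotency genes to 4063 to 5510 FPKM in the AG-haESC and ESC XX libraries and 253 in round sperm, of which Klf4 alone gave 219. Spermatocyte markers summed to 31.9 to 55.1 FPKM in AG-haESCs, 263 in round sperm and 12.3 and 13.01 in ESC XX, and feeder fibroblast markers to 268 to 365, 14.5, and 1439 and 1444. The 6 Sertoli markers and the 6 Leydig markers each summed to at most 10.3 FPKM in every library. The ESC XX tables were normalized apart from the table of the other 4 libraries, which bears on every level set across them.

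Respiratory chain genes were among the most abundant messages of the stem cells. Their median level was 159, 216 and 163 FPKM in A129-2, AOS-14 and AOS-16, 177 in round sperm, and 136 and 130 in the ESC XX libraries. The median member stood at percentile 98.2, 98.2 and 98.1 of all genes in the 3 lines, 97.7 and 97.6 in ESC XX, and 93.5 in round sperm. Members in the top 5% of genes numbered 71, 71 and 69 in the lines, 66 and 69 in ESC XX, and 36 in round sperm. Together the members held 3.60%, 3.63% and 3.55% of all FPKM in the lines, 3.33% and 3.34% in ESC XX, and 2.06% in round sperm. Round sperm thus had a similar median in FPKM but a lower rank and share, beside the highest total of FPKM. No member was at 0 in every library. Cox8b, a muscle isoform, was listed at 0 in AOS-16 and both ESC XX libraries and reached at most 0.633 FPKM.

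**Figure D1:**
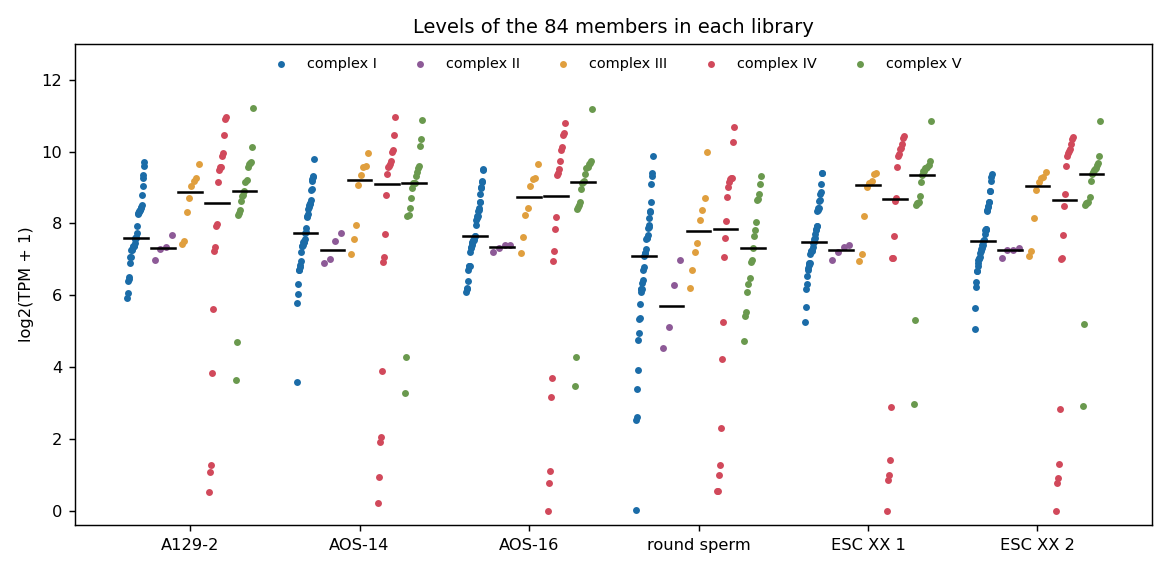
Level of every member in each library as log2(TPM + 1), where TPM is FPKM rescaled to the same total in every library. Points are genes, colours are complexes and black bars are medians. Each complex has similar medians in the AG-haESC and ESC XX libraries, and in round sperm all 5 medians are lower, with complex II at 55.1 TPM against 153 to 163 elsewhere.

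The most abundant member of the lines was Atp5b, the catalytic beta subunit of ATP synthase. It stood at 1219, 1346 and 1281 FPKM in A129-2, AOS-14 and AOS-16, 789 in round sperm, and 932 and 945 in ESC XX. It was the highest member in every library except AOS-14, where Cox6c led at 1403 FPKM, and round sperm, where the testis isoform Cox8c led at 2025. By complex, the median TPM of the lines was 194, 211 and 199 for complex I, 158, 155 and 163 for complex II, and 472, 599 and 434 for complex III. It was 414, 554 and 469 for complex IV and 480, 555 and 567 for complex V. The same medians in round sperm were 134, 55.1, 223, 230 and 158 TPM, in the order I to V.

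The comparison of AG-haESCs with round sperm asked how the stem cell lines differ from the male germ cells. Differences are given as log2(FPKM + 1), AG-haESC minus round sperm, with the standard error from limma. Calls needed an adjusted p under 0.05 (Benjamini-Hochberg over all genes) and a difference of at least 1. Of the 83 members tested, 18 were higher in AG-haESCs and 18 lower, while 47 were not called. Over all 15938 genes tested, 61.9% were called, 22.8% higher and 39.1% lower, beside 43.4% of the members, 21.7% in each direction. Without AOS-16 the counts were 11 higher and 7 lower, against 16.7% higher and 33.3% lower of the 15757 genes then tested. In bulk RNA, fewer cells of a type and less RNA per cell cannot be told apart. Every one of the 3 lines lay above round sperm for the 18 higher members and below it for the 18 lower ones. A call that rests on the spread of the lines nearly requires this, so it is no separate support. The spread in this test was that of the 3 lines (2 residual degrees of freedom), and the round sperm library, without a replicate, was assumed to vary like them.

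How many members moved each way depended on how the libraries were scaled. The median difference of the members was -0.07 as deposited, beside -0.49 for all genes, which puts the members 0.42 above all genes (0.27 without AOS-14, and -0.13, below all genes, with no filter on low values). Rescaled to the same total it was 1.01 beside 0.40, and 34 members were higher and 7 lower. With short genes left out as well it was 0.99 beside 0.37 (32 higher, 7 lower), and after quantile normalization 1.38 beside 0.31 (46 higher, 6 lower). Of all genes tested, 30.5%, 32.4% and 29.9% were higher under these scalings, and 28.1%, 29.5% and 28.7% lower. Among called members 50% were higher as deposited, against 82.9%, 82.1% and 88.5% under these scalings, and among all called genes 36.8%, against 52.1%, 52.3% and 51.1%. All 18 higher members kept their call under the 4 scalings. Of the 18 lower members 6 did: Atp5s, Cox6a2, Cox6b2, Cox7b2, Cox8c and Ndufa12. The other 12 lost their call in at least 1 scaling: Ndufc1 was also lower after rescaling to the same total and Atp5sl with short genes left out as well, and the others were lower as deposited alone. In all 8 alternatives, which include leaving out each line, 9 of the higher and 5 of the lower members kept their call. All values below are as deposited unless another scale is named.

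**Figure D2:**
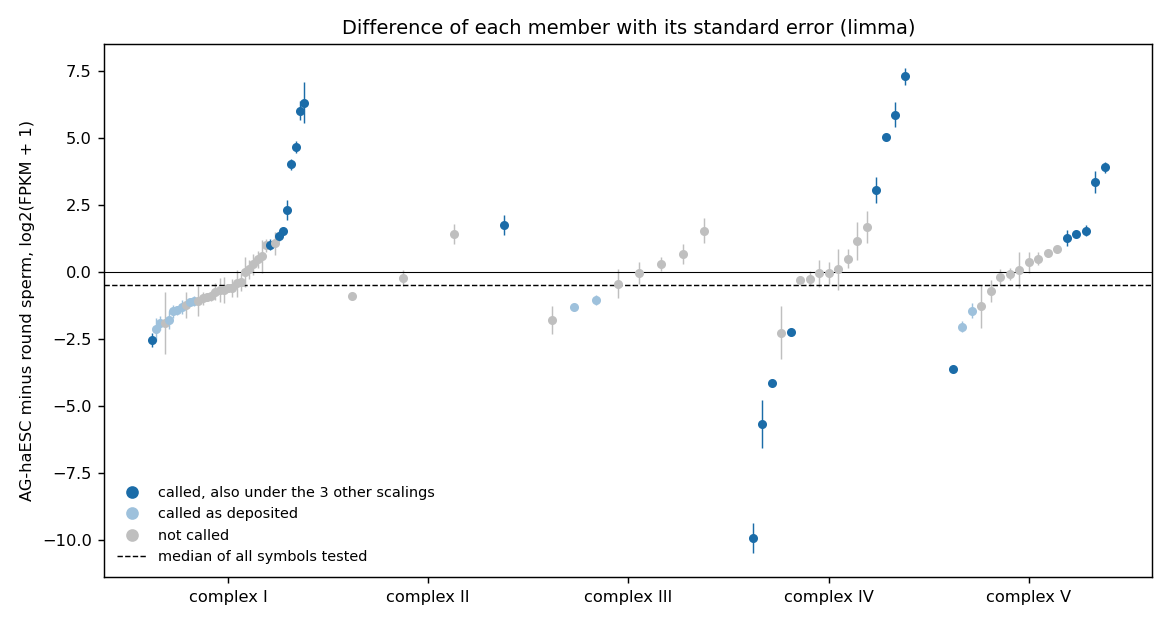
Difference of each of the 83 members tested, AG-haESC minus round sperm, on the log2(FPKM + 1) scale (vertical axis, points with standard error from limma), ordered within each complex. Dark points were called under all 4 scalings (24 members), light points were called as deposited and lost the call in at least 1 other scaling (12), grey points were not called as deposited, and the dashed line is the median of all genes tested, -0.49. The other scalings moved the median of all genes up, which favours keeping higher calls over lower ones. Complex IV holds both extremes, from -9.93 to 7.29.

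Complex I names had 8 members higher and 9 lower of 37, with a median of -0.62 (13 and 2 after rescaling to the same total). The higher genes were Ndufa1, Ndufa4, Ndufa10, Ndufa11, Ndufb11, Ndufc2, Ndufs5 and Ndufv3. The lower ones included Ndufa5, Ndufa9, Ndufa12, Ndufb5 and Ndufc1, and of all lower complex I names Ndufa12 alone kept its call under the 4 scalings. Ndufs5, an accessory subunit, had the largest rise among complex I names, and it was nearly absent from the round sperm table. It stood at 45.6, 79.8 and 136 FPKM in the lines, 0.00311 in round sperm, and 54.2 and 85.4 in ESC XX. The difference was 6.32 ± 0.77 (limma adjusted p = 0.0114; 0.0700 without AOS-14). Such near-zero values sit beside those of subunits of the same complex at over 100 FPKM in the same library, and how reads shared with processed pseudogenes, which many of these genes have, were handled is not given in the sources used here. Ndufa12, another accessory subunit, fell most: it was at 175, 240 and 187 FPKM in the lines, 1155 in round sperm, and 204 and 195 in ESC XX (-2.53 ± 0.25, limma adjusted p = 0.00755). Of the most abundant complex I names, Ndufa4 is described with its isoform, and Ndufa7 was at 396, 452 and 393 FPKM in the lines, 789 in round sperm and 341 and 317 in ESC XX, with no call. The lines lay below round sperm for Ndufa7 in FPKM and above it in TPM (777, 639 and 719 against 636.5).

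Complex II had 1 of its 4 genes called, Sdhc, which encodes a membrane anchor. Sdhc stood at 81.5, 127 and 80.8 FPKM in the lines and 27.2 in round sperm, with 74.3 and 77.3 in ESC XX. The lines were all above round sperm, by 1.75 ± 0.38 (limma adjusted p = 0.0359), and the call was lost with no filter on low values (0.0531), without A129-2 (0.0885) or without AOS-16 (0.0974). The second anchor, Sdhd, was at 104, 149 and 91.4 FPKM in the lines, 41.5 in round sperm and 81.5 and 80.3 in ESC XX, a difference of 1.41 ± 0.37 that did not pass (adjusted p = 0.0530) but did once totals were made equal (0.00519). The catalytic flavoprotein Sdha and the iron-sulfur subunit Sdhb were not called. Sdha stood at 63.4, 91.2 and 91.5 FPKM in the lines against 94.96 in round sperm, and Sdhb at 79.0, 84.3 and 86.5 against 157. In FPKM the anchor genes thus had lower values in round sperm than in any line and the catalytic genes higher ones, and in TPM Sdha turned (124.5, 128.96 and 167 in the lines, 76.6 in round sperm) and Sdhb overlapped.

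Complex III had no member higher and 2 lower of 8 as deposited, and 4 higher and none lower after rescaling to the same total. Uqcrc1, a core subunit, was at 162, 175 and 164 FPKM in the lines, 410 in round sperm, and 149 and 144 in ESC XX. Its fall of -1.29 ± 0.10 (limma adjusted p = 0.00472) was lost after rescaling to the same total (-0.21) and turned to 0.43 after quantile normalization, without a call. The small subunits Uqcr10 and Uqcr11 had the highest means over the lines, though not the highest levels in every library. Uqcr10 was at 413, 703 and 439 FPKM in the lines, 516 in round sperm and 335 and 317 in ESC XX, so that the lines overlapped round sperm. Uqcr11 was at 293, 537 and 337 FPKM in the lines, 128.7 in round sperm and 284 and 290 in ESC XX. All lines were above round sperm for Uqcr11, by 1.54 ± 0.46, which did not pass (adjusted p = 0.0695) and did with equal totals (2.63, 0.00581).

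Complex V had 5 members higher and 3 lower of 17, and 10 and 1 after rescaling to the same total. Its share of all FPKM was 1.06%, 1.08% and 1.07% in the lines, 1.03% and 1.05% in ESC XX, and 0.389% in round sperm. The membrane ring of ATP synthase is built from subunit c, for which Atp5g1, Atp5g2 and Atp5g3 encode the same mature protein behind different targeting peptides. Atp5g2 stood at 430, 549 and 469 FPKM in the lines, 31.2 in round sperm, and 379 and 371 in ESC XX. It was higher in the lines by 3.90 ± 0.19 (limma adjusted p = 0.00202), the largest rise in the complex. Atp5g3 stood at 566, 804 and 450 FPKM in the lines, 56.5 in round sperm, and 384 and 401 in ESC XX, a rise of 3.36 ± 0.42 (adjusted p = 0.0122; 0.0557 without A129-2). Atp5g1 had the smallest gap of these genes. It was at 223, 297 and 198 FPKM in the lines, 96.9 in round sperm, and 219 and 217 in ESC XX (1.27 ± 0.30, adjusted p = 0.0453), and its call was lost with no filter and without any 1 of the lines. The summed subunit c genes gave 1219, 1650 and 1117 FPKM in the lines against 185 in round sperm. Atp5s fell most under the complex V symbols: it was at 5.83, 6.15 and 5.57 FPKM in the lines, 82.9 in round sperm, and 3.44 and 3.33 in ESC XX (-3.62 ± 0.10, adjusted p = 0.000691).

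Complex IV had 4 members higher and 4 lower of 17 tested, and 5 and 4 after rescaling to the same total. Cytochrome c oxidase is built on mitochondrially encoded catalytic subunits, and the nuclear subunits tested here surround them. By the mean of the lines the most abundant was Cox6c, which led the complex in AOS-14 alone. It was at 482, 1403 and 775 FPKM in A129-2, AOS-14 and AOS-16, 751 in round sperm, and 479 and 475 in ESC XX. Cox7c was at 971, 471 and 965 FPKM in the lines, 237 in round sperm and 706 and 683 in ESC XX, a difference of 1.68 ± 0.60 that was not called (adjusted p = 0.0985; 0.0135 without AOS-14). The lines differed among themselves for both genes, with AOS-14 highest for Cox6c and lowest for Cox7c.

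Isoforms of 1 subunit differed in opposite directions in several families of complex IV. Cox8a, the broadly expressed form of subunit VIII, stood at 726, 751 and 805 FPKM in the lines, 22.0 in round sperm and 553 and 508 in ESC XX. Cox8c, its testis form, stood at 0.717, 2.23 and 0.617 FPKM in the lines, 2025 in round sperm and 0.414 and 0.364 in ESC XX. Neither gene had a line that overlapped round sperm. Cox8a was higher in the lines by 5.05 ± 0.11 (limma adjusted p = 0.000389) and Cox8c lower (-9.93 ± 0.55, adjusted p = 0.00248). Cox8c made up 98.9% of the family's FPKM in round sperm and 0.0986%, 0.295% and 0.0766% in the lines.

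Subunit VIIb showed the same exchange, with its broad form on the X chromosome. Cox7b stood at 389, 543 and 368 FPKM in the lines, 1.72 in round sperm and 212 and 229 in ESC XX, and rose by 7.29 ± 0.31 (limma adjusted p = 0.00148), the largest rise of any member at a pseudocount of 1 (at 0.1, Ndufs5 rose more, by 9.59 against 7.87). Cox7b2, an autosomal testis form, stood at 24.7, 9.68 and 6.57 FPKM in the lines, 644 in round sperm and 0.842 and 0.739 in ESC XX. It was lower in the lines than in round sperm (-5.66 ± 0.90, adjusted p = 0.0195; 0.0943 without AOS-14 and 0.0598 without AOS-16) and above ESC XX in every line. Cox7b2 made up 99.7% of the pair in round sperm, 5.96%, 1.75% and 1.76% in the lines, and 0.396% and 0.321% in ESC XX.

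Subunit VIb changed in the same way with more of the testis form left in the stem cells. Cox6b1, the broad form, stood at 293, 568 and 354 FPKM in the lines, 46.0 in round sperm and 603 and 599 in ESC XX (3.05 ± 0.49, limma adjusted p = 0.0200; 0.0825 without AOS-16). Cox6b2 stood at 81.9, 93.8 and 81.8 FPKM in the lines, 1526 in round sperm and 66.4 and 66.5 in ESC XX (-4.14 ± 0.14, adjusted p = 0.000899). Cox6b2 thus held 97.1% of the pair in round sperm and 21.9%, 14.2% and 18.8% in the lines, with 9.93% and 9.99% in ESC XX. It was the testis form with the highest level in the stem cells.

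Ndufa4 and Ndufa4l2 encode related proteins, the second of which is known as a hypoxia-induced gene. Ndufa4 stood at 429, 632 and 402 FPKM in the lines, 6.36 in round sperm and 346 and 337 in ESC XX (6.02 ± 0.36, limma adjusted p = 0.00279). Ndufa4l2 stood at 30.4, 7.79 and 39.3 FPKM in the lines, 82.5 in round sperm and 19.0 and 16.4 in ESC XX, and was not called (-1.90 ± 1.16, adjusted p = 0.246). The share of Ndufa4l2 was 92.8% in round sperm against 6.62%, 1.22% and 8.91% in the lines, and most of that gap lay in the level of Ndufa4.

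The heart and muscle isoforms did not move as a group. Cox7a1 stood at 128.9, 85.1 and 66.8 FPKM in the lines, 0.564 in round sperm and 65.5 and 65.1 in ESC XX (5.87 ± 0.47, limma adjusted p = 0.00508). Its liver-type partner Cox7a2 stood at 76.7, 312 and 159 FPKM in the lines, 757 in round sperm and 202 and 181 in ESC XX, without a call (-2.27 ± 0.99, adjusted p = 0.145). Cox7a1 was 62.7% of the pair in A129-2 and 21.4% and 29.6% in AOS-14 and AOS-16, beside 24.5% and 26.5% in ESC XX and 0.0744% in round sperm. The 4 muscle markers, Ckm, Acta1, Myh7 and Des, summed to 2.91, 3.68 and 2.94 FPKM in the lines and 45.7 and 46.6 in ESC XX, and their part in the level of Cox7a1 was not tested. Cox6a2, the other muscle form tested, was low everywhere: 0.224, 0.111 and 0.385 FPKM in the lines, 4.83 in round sperm and 0.509 and 0.446 in ESC XX (-2.24 ± 0.16, adjusted p = 0.00394). Its broad partner Cox6a1 was at 368, 603 and 466 FPKM in the lines, 334 in round sperm and 551 and 526 in ESC XX. All lines were above round sperm for Cox6a1, which was not called as deposited. Cox6a1 held at least 98.6% of that pair in every library.

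Subunit IV kept its main isoform in every library. Cox4i1 stood at 1023, 724 and 581 FPKM in the lines, 769 in round sperm and 670 and 666 in ESC XX, and held 99.2% to 99.8% of the pair. Cox4i2, a lung and low-oxygen form, stood at 6.69, 1.93 and 4.39 FPKM in the lines, 1.23 in round sperm and 3.23 and 3.12 in ESC XX, without a call (1.15 ± 0.70, adjusted p = 0.242). Within subunit c of ATP synthase, Atp5g1 was 52.5% of the FPKM in round sperm against 17.8% to 18.3% in the lines and 22.3% and 22.0% in ESC XX.

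**Figure D3:**
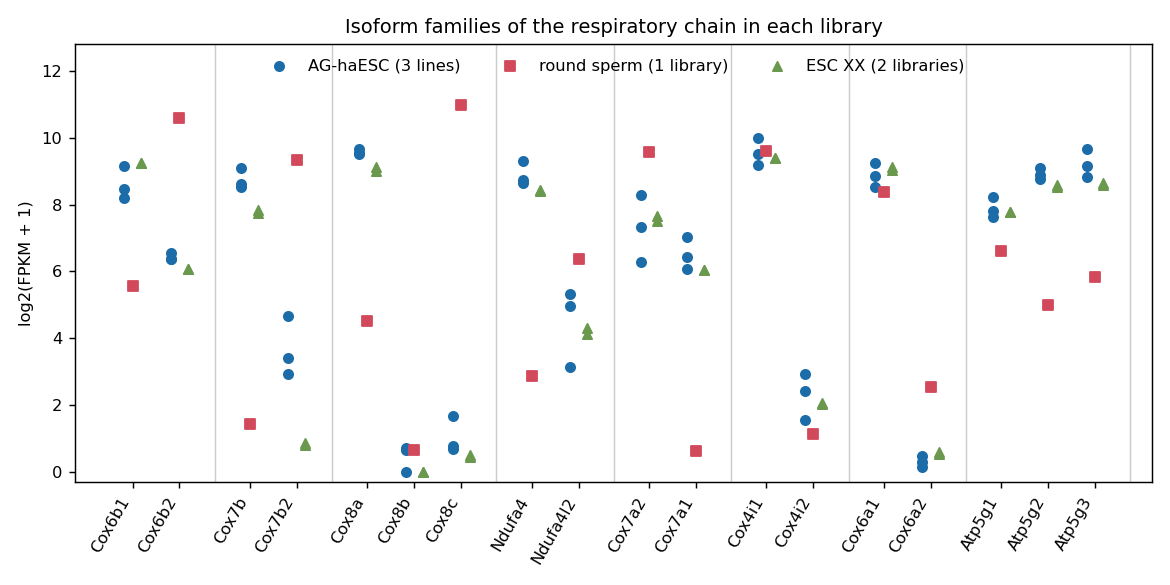
Level of each isoform in every library as log2(FPKM + 1), grouped by subunit. Circles are the 3 AG-haESC lines, squares the round sperm library and triangles the 2 ESC XX libraries, whose tables were normalized apart. In the Cox6b, Cox7b and Cox8 families the square lies below the circles for the broad gene and above them for the testis gene, and for Cox4i1 it lies among them.

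ESC XX served to compare the haploid lines with other embryonic stem cells in 2i. The tables were normalized separately, so no test was run. A gene was counted when its mean log2(TPM + 1), less the median difference of all genes, differed by at least 1 and when all lines were above, or all below, both ESC XX libraries. Of 82 members kept, 3 were higher in AG-haESCs and none lower, against 7.37% higher and 8.28% lower of 13172 genes. Without A129-2 the count of higher members was 5. Ploidy, origin of the genome (androgenetic or not), the X chromosomes carried, medium, strain background and cell sorting differ between these groups and cannot be told apart, and feeder fibroblast markers were higher in ESC XX (1439 and 1444 FPKM against 268 to 365), whose part was not tested. The median difference of the members was 0.21 ± 0.056 (SD of the 3 lines' medians), 0.11 without centring or with no filter and 0.074 after quantile normalization, and by complex it was 0.27, 0.22, 0.22, 0.26 and 0.02 from I to V. In TPM, 31 members had every line above both ESC XX libraries and 17 every line below. No share over all genes is given for these 2 counts, so they do not set the members apart from other genes. The ESC XX libraries were within 1.5-fold of each other for 82 of the 83 members with a value in both.

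The 3 members past that rule were Cox7b2, Ndufa1 and Ndufb11. Cox7b2 was at 48.5, 13.7 and 12.0 TPM in the lines and 1.66 and 1.45 in ESC XX, a difference of 3.15 ± 1.06 (SD of the lines, n = 3). Beyond the members, the testis cytochrome c Cyct (2.71) and the testis ADP/ATP carrier Slc25a31 (2.91) were also past this rule. Summed spermatocyte markers were also higher in the lines, as given above, and spermatid markers summed to 4.51, 3.94 and 2.26 FPKM in the lines and 2.54 and 1.61 in ESC XX, and the part of both lists in these 3 genes was not tested. The testis forms Cox6b2 and Cox8c stayed inside the rule, at 0.27 and 0.75.

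Ndufa1 and Ndufb11, accessory subunits of complex I, are on the X chromosome, as is Cox7b. Ndufa1 was at 530, 491 and 518 TPM in the lines and 176 and 169 in ESC XX (1.66 ± 0.06, SD, n = 3). Ndufb11 was at 316, 293 and 295 TPM in the lines and 149 and 144 in ESC XX (1.13 ± 0.06). Cox7b was at 764, 768 and 673 TPM against 418 and 451 (0.85 ± 0.11). These 3 members thus differed in the same direction and with little spread between the lines. Over all 525 X-chromosomal genes kept, the median difference was 0.92, with 45.5% called higher, so the X-chromosomal members stood close to their chromosome. The 76 members on autosomes other than chromosome 8 had a median of 0.19, beside -0.03 for all 11883 genes kept there, members included. Against round sperm the X-chromosomal members were higher in AG-haESCs as well, by 4.02, 4.67 and 7.29 for Ndufa1, Ndufb11 and Cox7b, where the median of 672 X-chromosomal genes was 1.29.

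Round sperm and ESC XX were set side by side by size alone, since there was 1 round sperm library and the tables were separate. In round sperm 16 of 83 members were at least 2-fold higher and 31 at least 2-fold lower, against 39.2% and 38.2% (77.4% together) of 15640 genes, with a median of -0.34. The extremes were Cox8c (10.36) and Cox7b2 (8.17) on the high side and Cox7b (-7.00), Ndufs5 (-6.57) and Ndufa4 (-6.28) on the low side. The same genes gave -9.93, -5.66, 7.29, 6.32 and 6.02 for AG-haESC minus round sperm, a comparison that shares the round sperm library and was scaled in another way. Without the filter, without centring or after quantile normalization, 8 members in place of 16 were higher in round sperm.

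The 3 lines were close to each other for most members. The highest line was a median of 1.28 times the lowest in TPM, at most 1.5 times for 64 of 83 members and at least 2 times for 12. No such ratio over all genes is given here, so this does not set the members apart from other abundant genes. In FPKM, AOS-14 was the highest line for 69 members, and in TPM for 33, and AOS-14 is the line with 12.7% of FPKM in short genes, whose part in this was not tested. Ndufa12 and Ndufs3 were the steadiest, at ratios of 1.01 and 1.02, and Ndufa4l2 the least steady at 6.53 (these 3 were picked for their ratios). Between A129-2 and the AOS lines, by size alone, Cox7b2 (1.64) and Cox4i2 (1.08) were higher in A129-2 on the centred log2(TPM + 1) scale. Cox7a2 (-1.45), Atp5e (-1.23), Ndufs5 (-1.10) and Cox6c (-1.03) were lower. That made 2 higher and 4 lower members, against 6.73% and 8.17% of 12637 genes, and the balance turned to 4 higher and 2 lower without centring or with no filter.

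Members on chromosome 8 stood apart between the lines together with their chromosome. This chromosome was singled out with earlier results of these data known, so its shift is described here and is no independent finding. Cox4i1 was at 2009 TPM in A129-2 and 1024 and 1063 in AOS-14 and AOS-16, a difference of 0.74. Ndufa13, a subunit of complex I, was at 194, 103 and 111 TPM (0.65), and Ndufb7, another, at 654, 365 and 285 TPM (0.82). A129-2 was the highest line for all 3 genes. ESC XX lay between or near them, at 1320 and 1312 TPM for Cox4i1, 142 and 126 for Ndufa13, and 327 and 325 for Ndufb7. Over all 686 genes of chromosome 8 the median difference between A129-2 and the AOS lines was 0.87, with 39.4% called higher. The 76 members on other autosomes had a median of -0.19. Among those, Cox7a1 (0.85), Cox4i2 (1.08) and Cox7b2 (1.64) were above the chromosome 8 members. Against round sperm the chromosome 8 members were at -0.03, -0.38 and -0.01 in log2(FPKM + 1), and none was called.

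**Figure D4:**
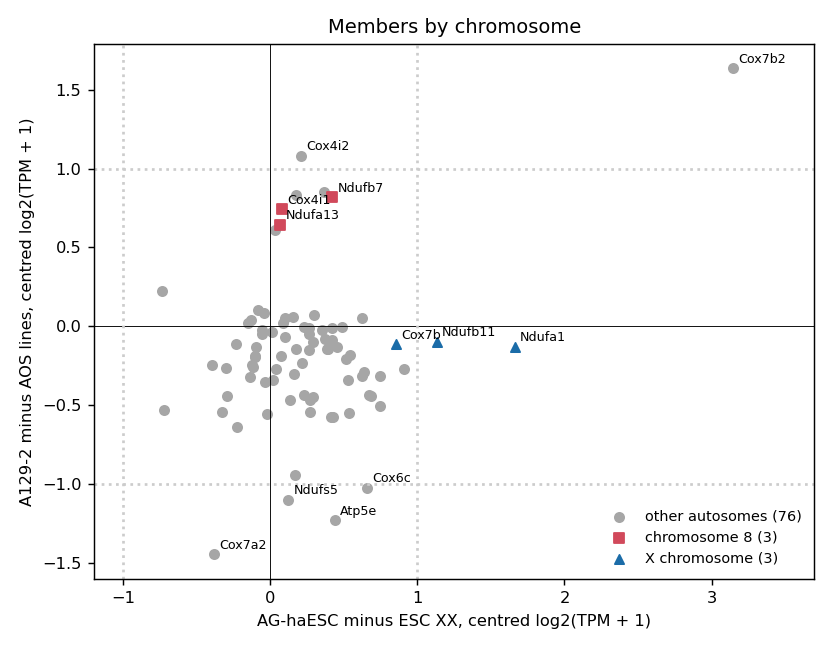
Difference of each of the 82 members kept between AG-haESC and ESC XX (horizontal axis) and between A129-2 and the AOS lines (vertical axis), both on the log2(TPM + 1) scale less the median of all genes. Dotted lines mark a difference of 1 in either direction. The 3 X-chromosomal members (triangles) lie to the right at 0.85 to 1.66. The 3 chromosome 8 members (squares) lie at 0.65 to 0.82 on the vertical axis, below the dotted line, and Cox7b2 is at the upper right.

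Assembly factors, which insert cofactors and join subunits, were called in both directions. Of 41 tested against round sperm, 10 were higher in AG-haESCs and 9 lower, against 22.8% higher and 39.1% lower of all genes tested. Without AOS-16 the counts were 6 and 4, against 16.7% higher and 33.3% lower of all genes tested. When libraries were rescaled to the same total they were 17 and 4, against 30.5% higher and 28.1% lower of all genes tested. Cox14, a factor for the first steps of complex IV, was at 38.03, 89.4 and 57.3 FPKM in the lines and 3.71 in round sperm (3.65 ± 0.60, limma adjusted p = 0.0211; 0.0893 without AOS-16). Lyrm7, which brings the iron-sulfur protein to complex III, was at 0.381, 0.306 and 0.513 FPKM in the lines, 60.1 in round sperm and 2.15 and 2.85 in ESC XX (-5.45 ± 0.12, adjusted p = 0.000401). Lyrm7 was also below ESC XX in every line, by -1.70, the only assembly factor past that rule.

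Among 7 subunits and partners outside the symbol rule 3 were higher and none lower. Cyc1, the cytochrome c1 of complex III, was at 161, 209 and 166 FPKM in the lines and 15.7 in round sperm (3.41 ± 0.22, limma adjusted p = 0.00317). Cycs, the somatic cytochrome c, was at 46.4, 57.2 and 42.5 FPKM in the lines, 6.16 in round sperm and 47.2 and 48.8 in ESC XX (2.78 ± 0.23, adjusted p = 0.00515). Its testis form Cyct was at 20.9, 50.8 and 35.9 FPKM in the lines, 178 in round sperm and 3.88 and 4.98 in ESC XX, and was not called against round sperm (-2.36 ± 0.62, adjusted p = 0.0546). Cyct made up 31.1%, 47.0% and 45.8% of the cytochrome c FPKM in the lines, 96.7% in round sperm, and 7.59% and 9.25% in ESC XX. The mobile carrier between complexes III and IV thus had the largest testis share of the families described here in the haploid lines.

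The ADP/ATP carriers, which exchange ATP made by complex V across the inner membrane, were far lower in round sperm as a family. Slc25a5, on the X chromosome, was at 919, 881 and 831 FPKM in the lines, 4.78 in round sperm and 370.2 and 391 in ESC XX (7.24 ± 0.11, limma adjusted p = 0.000166; 1.10 higher than ESC XX). Slc25a4, the heart and muscle form, was at 588, 410 and 278 FPKM in the lines, 1.53 in round sperm and 236 and 242 in ESC XX (7.33 ± 0.54, adjusted p = 0.00422). Slc25a31 was at 12.0, 7.20 and 2.51 FPKM in the lines, 27.9 in round sperm and 0.188 and 0.493 in ESC XX, without a call (-2.004 ± 0.95, adjusted p = 0.165). Slc25a31 held 81.6% of the carrier FPKM in round sperm and at most 0.791% elsewhere, while the sum of the 3 carriers was 34.2 FPKM in round sperm and 1111 to 1519 in the lines.

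Of 16 membrane carriers and channels in all, 6 were higher and 5 lower in AG-haESCs (3 lower without AOS-14, and 2 lower after rescaling to the same total). The outer membrane channel Vdac1 was at 354, 594 and 545 FPKM in the lines and 1.58 in round sperm (7.56 ± 0.40, limma adjusted p = 0.00229). Tomm22, a receptor of the import machinery, was at 107, 121 and 61.8 FPKM in the lines and 953 in round sperm (-3.34 ± 0.51, adjusted p = 0.0179; 0.0645 without A129-2 and 0.0625 without AOS-14). The enzymes of the tricarboxylic acid cycle, which feed complexes I and II, had 5 higher and 3 lower of 13 (1 lower after rescaling). Idh3g, an X-chromosomal subunit of isocitrate dehydrogenase, was at 138, 191 and 163 FPKM in the lines and 6.18 in round sperm (4.51 ± 0.24, adjusted p = 0.00231). Sucla2, a subunit of succinyl-CoA ligase, was at 42.2, 63.6 and 43.4 FPKM in the lines and 776 in round sperm (-3.96 ± 0.33, adjusted p = 0.00535). Genes of mitochondrial DNA expression and biogenesis had 4 higher and 4 lower of 16 (7 and 1 after rescaling). Ssbp1, which coats single-stranded mitochondrial DNA, was at 56.6, 62.8 and 57.8 FPKM in the lines and 1.47 in round sperm (4.60 ± 0.11, adjusted p = 0.000470). Tfb1m, a methyltransferase of mitochondrial ribosomal RNA, was at 10.1, 13.8 and 10.9 FPKM in the lines and 83.1 in round sperm (-2.75 ± 0.23, adjusted p = 0.00556). Of all genes tested 22.8% were higher and 39.1% lower as deposited, and 30.5% and 28.1% after rescaling to the same total. Lists of this size with calls in both directions thus do not stand apart by that alone.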

How the data were processed

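Polyadenylated RNA of 6 libraries was sequenced after stranded library preparation, per the labels' protocols. TopHat2 2.0.13, Cuffdiff 2.2.1 and mm9 are named in the submitters' processing notes, and the sources used here do not give their settings, such as the use of strand or of reads that match several places. The authors deposited FPKM values, in 1 table for the AG-haESC and round sperm libraries, whose header does not name the unit, and in 1 table for each ESC XX library. The unit of the first was taken from the tool named and from the values. Cuffdiff's FPKM are not counts, so no count model was used.

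Groups came from the labels. AG-haESC and round sperm were compared within their table with limma 3.58.1 (R 4.3.3, mean-variance trend, two-sided, Benjamini-Hochberg over all genes) on log2(FPKM + 1) of genes at 1 FPKM or more in at least 1 of the 4 libraries; the procedure was tested on simulated data. Fold changes on this scale understate those of low genes. Values across tables were rescaled to TPM, compared as log2(TPM + 1) less the median of all genes, and not tested. Percentages of families are sums of FPKM. Chromosomes come from RefSeq genes, where 81 members matched by symbol and 3 by synonym. Transcript lengths, which define short transcripts (under 200 nt), come from GENCODE M21 (GRCm38), or from RefSeq where that had none. Promoters come from RefSeq GRCm38.p6.

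The members, all gene lists and chromosome 8 were chosen with earlier results of these data known. Named genes were the isoform families, the 2 most abundant and the most changed called members of each complex in each direction, members past the rule against ESC XX, members on chromosomes 8 and X, and the most changed called gene of each list in each direction. Replicates are separate lines for AG-haESC, and p-values measure the spread between these libraries. Alternatives were another pseudocount (0.1), no filter, 3 other scalings, other centrings and leaving out each library.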

Additional observations from a re-analysis of the deposited data

How the results depend on the processing

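No paired analysis was possible, since the labels name nothing that pairs libraries across the groups. Only the ESC XX labels carry replicate numbers. Against round sperm, higher and lower members numbered 34 and 7 rescaled to the same total, 32 and 7 with short genes out, 46 and 6 after quantile normalization, and 11 to 15 and 7 to 19 when 1 line was left out. Of all genes tested, 15.6% to 22.0% were higher and 33.3% to 37.7% lower with 1 line left out. In the 3 scalings, 30.5%, 32.4% and 29.9% were higher and 28.1%, 29.5% and 28.7% lower. The member median of -0.07 became 1.01, 0.99 and 1.38 under the same scalings. Relative to all genes it was -0.13 with no filter and 1.07 after quantile normalization. In the same order of scalings, assembly factors gave 17, 18 and 18 higher and 4, 4 and 3 lower (6 to 10 and 4 to 8 with a line left out). Lower tricarboxylic acid cycle genes were 1, 1 and 1, lower mitochondrial DNA expression genes 1, 1 and 1 (7 and 7 higher in the first and second scalings), and lower carriers 2, 2 and 2 (3 without AOS-14). Of 39 genes with a difference given against round sperm, 27 stayed on the same side of the threshold in all 8 alternatives, and Uqcrc1 changed sign (0.43, quantile). Against ESC XX, higher members were 5 without A129-2, and the member median was 0.11 with no filter, 0.11 not centred, 0.074 after quantile normalization and 0.14 to 0.28 with a line left out. Members higher in round sperm than in ESC XX were 8 with no filter, 8 not centred and 8 after quantile normalization. Between A129-2 and the AOS lines, higher members were 4 with no filter, 4 not centred and 4 after quantile normalization, and lower ones 2 with no filter and 2 not centred. Depth as numbers of reads is unknown, 1 library stands for round sperm, and levels across the 2 kinds of table rest on the rescaling.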
